A study of Homo sapiens with 16 samples.

Results

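The HOX cluster genes are the 39 genes of the deposited tables whose symbol is HOXA, HOXB, HOXC or HOXD followed by a number, out of 57820 gene rows in all. The rule uses the symbol and no measured value, although the choice of this gene family was made with earlier results of these data known. HOXC4 has 2 rows with different Ensembl identifiers, so the tables hold 40 rows for 39 symbols. The row with the higher level (ENSG00000198353) stands for HOXC4 here, and the other had a mean of 0.237 FPKM and was not tested. The genes were followed in 16 RNA-seq libraries from 2 lines of HEK-293 T-REx cells, which are human embryonic kidney cells carrying an integrated transgene that doxycycline switches on. The transgene encoded Flag- and Cherry-tagged HCF-2 WT in one line and HCF-2 Fn3nc*, altered in the interface between the Fn3n and Fn3c elements, in the other. Both lines were selected with hygromycin after transfection, and no source used here says whether each is a pool or a clone. Both received doxycycline in every library, and each was sampled 1, 2, 4 and 6 days after induction with 2 libraries per group. Libraries of uninduced cells or of cells expressing the tag alone were not analysed here, so a change over the days cannot be told apart from the age of the culture or the drug, and a difference between the lines cannot be told apart from any other difference between the 2 lines.

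HOX genes encode homeodomain transcription factors that specify position along the body axes. They lie in 4 clusters in which the order of the genes follows the order of their expression in the embryo, from the anterior genes with low numbers to the posterior genes with high numbers, and genes with the same number in different clusters are paralogs. HOX proteins bind DNA together with cofactors of the TALE class such as PBX and MEIS, and the clusters are textbook targets of Polycomb repression and of activation by MLL methyltransferases. HCF-2, encoded by HCFC2, is the paralog of HCF-1, a subunit of MLL and SET1 complexes. On GRCh37 the HOXA cluster spans 107.1 kb of chromosome 7 (11 genes), HOXB 200.2 kb of chromosome 17 (46605888 to 46806112, 10 genes), HOXC 117.2 kb of chromosome 12 (54332615 to 54449814, 9 genes) and HOXD 98.2 kb of chromosome 2 (176957449 to 177055635, 9 genes).

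The libraries held 20270033 to 31006448 expected counts, which are the read numbers per gene that RSEM estimates, and the HOX rows took 0.0728 to 0.1038% of them. Over all genes, replicate libraries differed by more than sampling noise in every group (chi-square per gene 2.76 to 19, where noise alone gives about 1). Over HOX genes the values were 1.32 to 6.84. Those of HCF-2 Fn3nc* day 1 (1.32) and HCF-2 WT day 6 (1.46) were near that of noise alone. HCF-2 WT day 4 replicate 2 stood apart with counts in 36469 genes, the highest number of all libraries, against a lowest of 26411. HCFC2, measured with endogenous and transgene reads together, stood at 917 to 1362 CPM (counts scaled to a common library size after TMM) in HCF-2 WT and 893 to 1479 CPM in HCF-2 Fn3nc*. Among 12 genes of the HEK-293 list, 9 were above 1 FPKM in at least 1 library. The summed level of the list was 678 to 792 FPKM in HCF-2 WT and 492 to 644 FPKM in HCF-2 Fn3nc*, which did not overlap. VIM made up most of this sum (mean 407.9 FPKM, 289.3 to 522.2), followed by KRT8 (mean 94.4) and KRT18 (54.8). PAX2, LHX1, NEFM, TH and DBH had means below 1 FPKM. The HEK-293 sums given below thus mostly follow VIM. Lists for 5 other cell types summed to at most 11.3 FPKM in any library. Above 1 FPKM in at least 1 library were 3 of 9 blood cell, 2 of 9 fibroblast, 1 of 6 squamous and 0 endothelial or hepatocyte markers. The blood cell markers were HBA1 (at most 7.25 FPKM), CD79A (2.22) and CD14 (1.98), with PTPRC at most 0.4 FPKM. The squamous marker was KRT10 (mean 6.46 FPKM), with KRT5 and TP63 at most 0.19 FPKM. The fibroblast markers were COL1A1 (at most 2.92 FPKM) and LUM (2.9). The sums of these lists given below thus follow few genes. The highest blood cell sum, 11.3 FPKM, was that of both HCF-2 Fn3nc* day 1 libraries. Nothing further is given on the origin of the replicate libraries than duplicate induction, and the p-values therefore reflect only how far these libraries spread, which may be technical.

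Promoter windows of 300 bases, from 250 before to 50 after a transcription start, were at hand from RefSeq (GRCh38.p14) for 20 of the 39 genes, in 26 distinct windows, since HOXA3 has 7 starts, HOXA10 has 2, and HOXC4 and HOXC5 share 1. Of HOXB only HOXB1 was covered and of HOXC only HOXC4 and HOXC5, so the HOX shares below mostly describe HOXA and HOXD. Each of the 26 sequences had exactly 1 match on GRCh37, which gives the positions used here. The motif CCAAT, searched on both strands, was present in 17 of 26 windows (65.4%) against 34.6% of 34943 distinct windows of 27305 genes. TATAAA was present in 5 of 26 (19.2%) against 11.6%, and GGGCGG in 13 of 26 (50%) against 44.9%, with overlaps between motifs left in. The median GC content was 58.0% in HOX windows and 58.7% in all windows, whereas the median number of CpG dinucleotides was 22.5 against 14. Windows of 5 genes on which the results below turn are shown with CCAAT and TATAAA on either strand in capitals. HOXA2, at chr7:27142253-27142552 (minus strand), and HOXD4, at chr2:177016028-177016327 (plus strand), had the largest falls in HCF-2 WT. HOXA4, at chr7:27170327-27170626 (minus strand), was the gene that rose there. HOXA9, at chr7:27205107-27205406 (minus strand), had the highest mean level, and HOXA6, at chr7:27187344-27187643 (minus strand), was higher in HCF-2 Fn3nc* on every day.
HOXA2: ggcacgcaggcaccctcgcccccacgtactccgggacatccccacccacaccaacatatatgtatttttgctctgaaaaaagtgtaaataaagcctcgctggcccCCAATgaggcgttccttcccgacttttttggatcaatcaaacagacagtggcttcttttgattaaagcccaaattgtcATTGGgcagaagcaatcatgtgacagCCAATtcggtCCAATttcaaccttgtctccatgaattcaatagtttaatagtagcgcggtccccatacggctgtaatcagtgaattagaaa
HOXD4: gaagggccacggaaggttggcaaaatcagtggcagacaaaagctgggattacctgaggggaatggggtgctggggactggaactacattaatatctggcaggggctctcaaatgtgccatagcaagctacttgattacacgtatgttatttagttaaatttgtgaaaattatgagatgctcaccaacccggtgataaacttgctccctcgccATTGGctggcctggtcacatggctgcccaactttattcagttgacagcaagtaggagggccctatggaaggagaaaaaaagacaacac
HOXA4: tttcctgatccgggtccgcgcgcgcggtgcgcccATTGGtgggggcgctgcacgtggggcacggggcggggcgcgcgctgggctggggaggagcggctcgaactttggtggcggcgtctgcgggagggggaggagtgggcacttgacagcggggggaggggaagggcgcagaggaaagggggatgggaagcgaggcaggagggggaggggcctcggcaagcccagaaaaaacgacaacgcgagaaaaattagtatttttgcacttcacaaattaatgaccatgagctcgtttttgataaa
HOXA9: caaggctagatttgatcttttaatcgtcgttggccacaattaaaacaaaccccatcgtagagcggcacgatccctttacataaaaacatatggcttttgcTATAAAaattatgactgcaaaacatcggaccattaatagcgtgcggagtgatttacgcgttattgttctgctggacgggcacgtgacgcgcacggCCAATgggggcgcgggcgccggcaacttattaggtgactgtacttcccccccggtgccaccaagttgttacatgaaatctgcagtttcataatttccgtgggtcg
HOXA6: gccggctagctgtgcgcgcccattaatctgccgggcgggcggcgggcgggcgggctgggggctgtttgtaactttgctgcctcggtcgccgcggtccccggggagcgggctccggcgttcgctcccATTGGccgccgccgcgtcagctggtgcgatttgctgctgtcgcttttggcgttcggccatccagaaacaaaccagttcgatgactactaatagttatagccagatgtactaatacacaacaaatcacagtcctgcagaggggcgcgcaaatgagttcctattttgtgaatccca
The HOXA2 window held 4 CCAAT matches and the other 4 windows 1 each, and of the 5 the HOXA9 window alone held TATAAA. These matches describe the letters of the windows and were not tested for binding.

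Nearly all HOX genes were expressed in these cells. Of the 39 genes, 35 had more than 1 FPKM (fragments scaled to transcript length and library size) in at least 1 library, 32 had it in all 16, and all 39 exceeded 0.1 FPKM in at least 1, which for HOXC12 was HCF-2 WT day 4 replicate 2 alone (0.13 FPKM), the library with the most genes counted. The 4 genes that did not reach the threshold were HOXB1 (mean 0.031 FPKM), HOXC12 (0.018 FPKM), HOXD12 (0.367 FPKM) and HOXD1 (0.6 FPKM). These are the most anterior genes of the HOXB and HOXD clusters and both members of paralog group 12. HOXD4 passed in 15 libraries, HOXA2 in 14 and HOXC5 in 6.

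**Figure D1:**
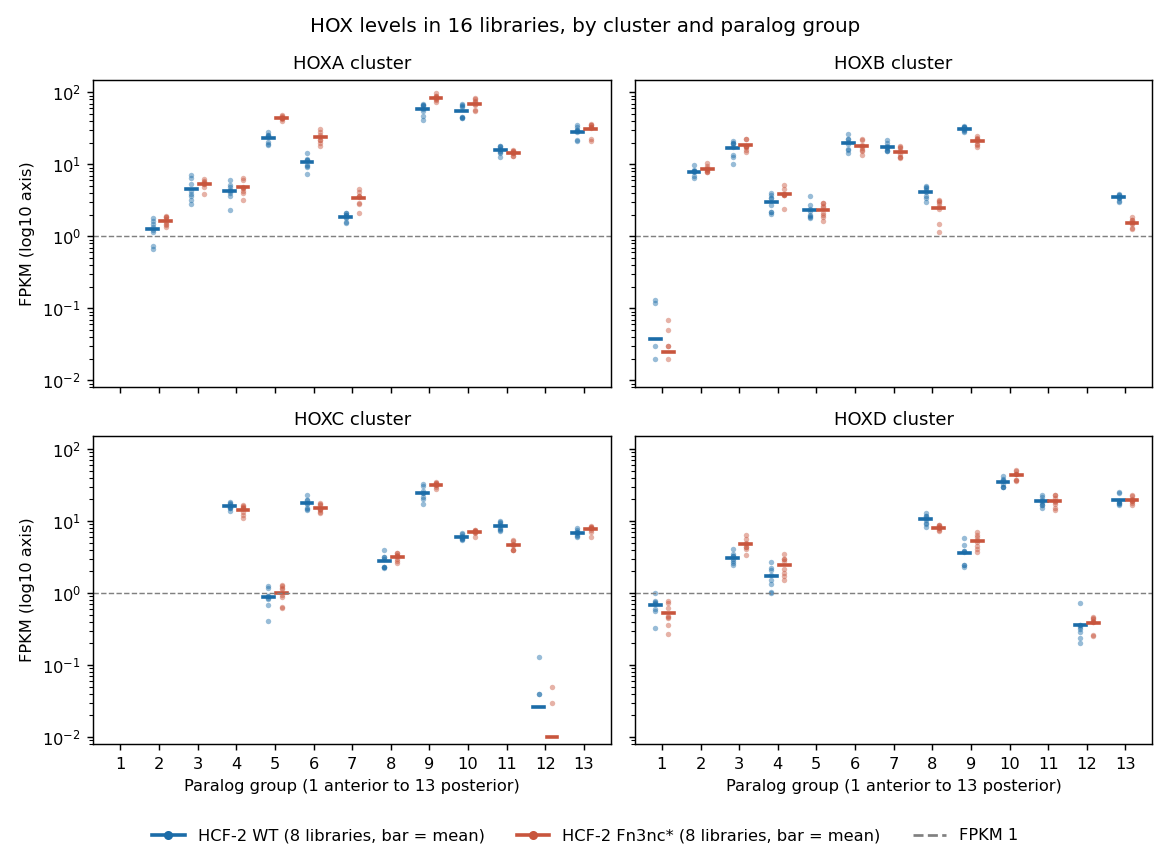
Level of 38 HOX genes in FPKM (log10 axis) by paralog group within its cluster. Points are libraries, bars are means over the 8 libraries of a cell line, values of 0 are not drawn as points, and the dashed line marks 1 FPKM. The highest levels lie at groups 9 and 10 of HOXA and group 10 of HOXD, and group 12 and the most anterior HOXB and HOXD genes lie below the line.

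Levels were highest at posterior positions. HOXA9 had the highest mean (71.8 FPKM, 41.9 to 97.05 over libraries), followed by HOXA10 (62.8 FPKM, 43.8 to 83.2). The ranges of these neighbours overlapped, and in HCF-2 WT HOXA10 had the higher mean on days 1 and 6 (67.9 against 66.8 FPKM, and 44.7 against 44.4 FPKM). HOXD10 (38.7 FPKM, 29.4 to 50.6), HOXA5 (33.8 FPKM, 18.6 to 47.9), HOXA13 (29.7 FPKM, 20.8 to 36.8), HOXC9 (28.3 FPKM, 17.3 to 34.8) and HOXB9 (26.3 FPKM, 17.4 to 34.3) came next, and each of their ranges overlapped that of the next in order. These means pool lines that differ, and the order was not the same in each. HOXA5 had a median of 24.3 FPKM in HCF-2 WT, below the 32.01 FPKM of HOXB9, and of 44.2 FPKM in HCF-2 Fn3nc*, above the 21.6 FPKM of HOXB9. The 16 posterior genes (groups 9 to 13) took 64.1% of the summed HOX FPKM, the 15 central genes (groups 4 to 8) 28.2% and the 8 anterior genes (groups 1 to 3) 7.7%. By cluster, HOXA took 46.9%, HOXB 18.7%, HOXD 18.5% and HOXC 15.9%. HOXA9 and HOXA10 share same-strand exon bases with a read-through gene, and the pairs HOXB3 and HOXB4, HOXB3 and HOXB6, HOXC4 and HOXC6, HOXC6 and HOXC9, and HOXD10 and HOXD11 share them with each other, so the division of reads within these pairs is uncertain.

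In HCF-2 WT the HOX genes that passed the test by day 6 mostly fell. In such bulk samples fewer cells that express a gene and less RNA per cell cannot be told apart. The words rose and fell are used where edgeR gave an adjusted p under 0.05, over all 18925 genes tested, and a log2 fold change beyond 0.5. Of the 35 HOX genes tested, 10 fell and 1 rose on day 6 against day 1, where 8.04% of all genes tested fell and 13.2% rose. The median log2 fold change was -0.31 over the HOX genes and -0.01 over all genes, and 27 of 35 values were below 0. The falls comprised 6 of 11 HOXA, 2 of 9 HOXB, 0 of 8 HOXC and 2 of 7 HOXD genes, and 3 of 6 anterior, 3 of 15 central and 4 of 14 posterior genes. An unadjusted p under 0.05 was reached by 3 of the 8 HOXC genes. The share of all genes at that unadjusted threshold is not given here, so this count cannot be set against it. The summed level of the HOXA cluster was 242.7 and 236.4 FPKM on day 1, and 167.5 and 165.0 FPKM on day 6. Fibroblast markers summed to 2.32 to 2.42 FPKM on day 1 and 3.42 to 4.35 FPKM on day 6, squamous markers to 5.87 to 6.2 and 4.96 to 5.37 FPKM, and HEK-293 markers to 735 to 774 and 744 to 792 FPKM, and their part in the changes was not tested.

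Among anterior genes, HOXA2, which patterns the second branchial arch, measured 2.68 and 3.63 CPM on day 1 and 1.36 and 1.496 on day 6 (log2 fold change -1.16, SE 0.24, adjusted p = 0.00288). HOXA3, required for thymus and parathyroid development, measured 9.102 and 11.2 CPM and 6.49 and 6.65 on these days (log2 fold change -0.65, SE 0.16, adjusted p = 0.007796). HOXB3, a hindbrain patterning gene, measured 33.3 and 34.02 CPM and then 21.4 and 24.6 (log2 fold change -0.57, adjusted p = 0.00503). For each of the 3 genes both day 6 libraries lay below both day 1 libraries. A gene called with 2 libraries per group is likely to show this, so such separation, here and below, adds no support to a call. HOXA3 shares 745 exon bases with antisense genes and 674 with same-strand genes, HOXB3 shares 451 and 477, and HOXA2 shares none. Where exons overlap, reads of sense and antisense transcripts cannot be told apart.

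Of the central genes, HOXB4, known for its role in blood stem cells, went from 15.3 and 13.97 CPM to 7.89 and 8.31 (log2 fold change -0.88, SE 0.18, adjusted p = 0.00265), and its paralog HOXD4 from 3.08 and 2.45 CPM to 1.399 and 1.46 (log2 fold change -0.97, SE 0.32, adjusted p = 0.0315). The third member of paralog group 4 that was called, HOXA4, rose from 2.68 and 4.45 CPM to 6.41 and 5.404 (log2 fold change 0.71, SE 0.25, adjusted p = 0.0414). The groups did not overlap in any of the 3, although the libraries of HOXA4 differed widely on day 1. HOXA5, needed for lung and airway development, went from 43.9 and 39.96 CPM to 26.5 and 31.2 (log2 fold change -0.56, adjusted p = 0.00117). HOXA4 shares 285 exon bases with antisense genes and 541 with a same-strand gene, and no source used here gives the strand used in counting, so reads of sense and antisense transcripts cannot be told apart.

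The posterior falls included the most abundant HOX genes. HOXA9, a regulator of blood progenitors and a known MLL target, measured 96.7 and 93.5 CPM on day 1 and 64.7 and 63.1 on day 6 (log2 fold change -0.60, SE 0.07, adjusted p = 0.000128). HOXA10, which acts in uterine development, measured 121 and 109.9 CPM and 72.2 and 77.4 (log2 fold change -0.65, SE 0.08, adjusted p = 0.000172), and HOXA13, required for digits and the urogenital tract, 113 and 107 CPM and 70.5 and 73.8 (log2 fold change -0.63, SE 0.08, adjusted p = 0.000109). The day 6 libraries of these 3 genes differed from each other by far less than from day 1. HOXA9, HOXA10 and HOXA13 share 422, 608 and 86 exon bases with antisense genes, so the same limit on reads holds there. HOXD9 measured 9.19 and 10.9 CPM and then 5.99 and 5.49 (log2 fold change -0.83, SE 0.22, adjusted p = 0.0109). The calls of HOXA2, HOXA9, HOXA10, HOXA13 and HOXB4 held when any single library was left out. Without HCF-2 WT day 6 replicate 1, 6 calls were left, those of HOXA3 (adjusted p = 0.0525), HOXA4 (0.205), HOXA5 (log2 fold change -0.45), HOXB3 (adjusted p = 0.0607) and HOXD4 (0.1299) being lost. HOXA3 also lost its call without HCF-2 WT day 1 replicate 2, HOXA5 without day 1 replicate 1, HOXD9 without day 1 replicate 2 or day 6 replicate 2, and HOXA4 and HOXD4 without day 1 replicate 1 or day 6 replicate 2. The value of HOXA4 was 0.39 without day 1 replicate 1 and 1.13 without day 1 replicate 2.

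**Figure D2:**
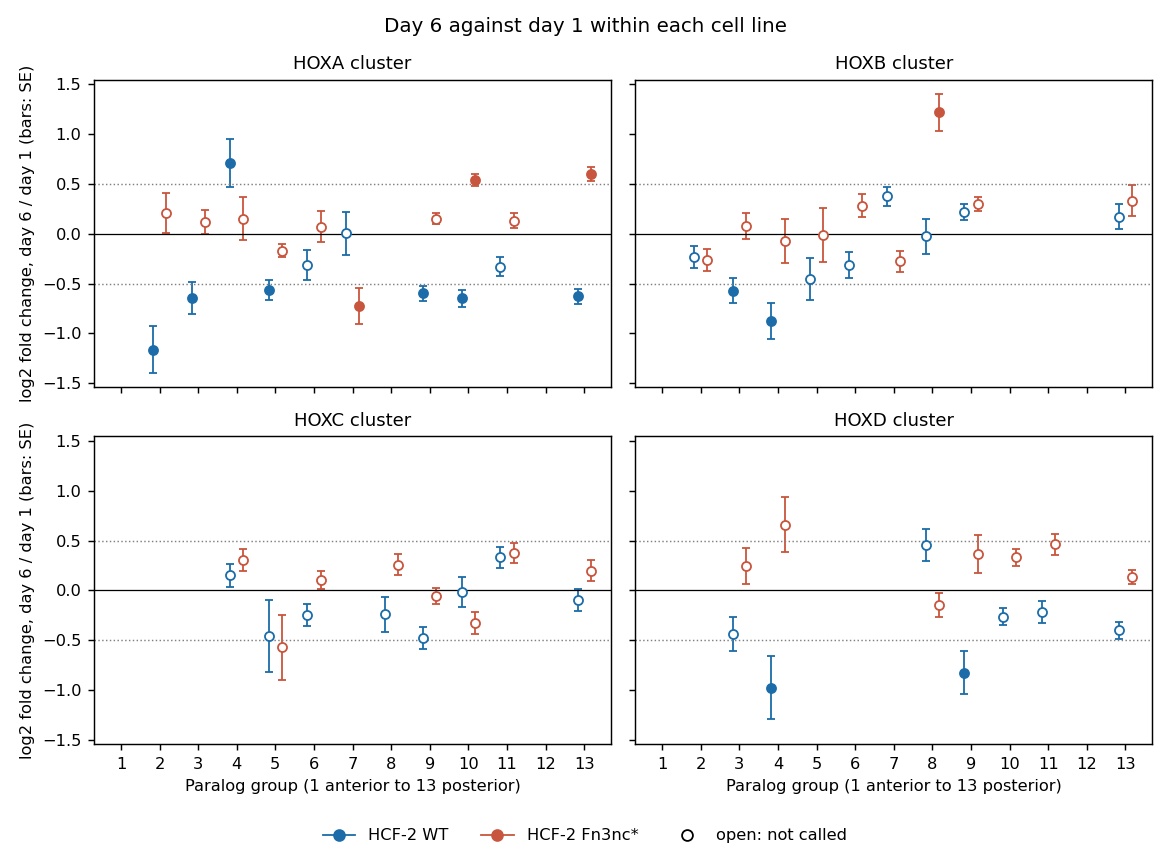
Log2 fold change of 34 tested HOX genes on day 6 against day 1 in HCF-2 WT (blue) and HCF-2 Fn3nc* (red), by cluster and paralog group. Bars are standard errors, filled points are called, open points are not, and dotted lines mark the fold threshold of 0.5. In HCF-2 WT 10 filled points lie below 0 and 1 above, and in HCF-2 Fn3nc* 3 lie above and 1 below.

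The earlier days held few calls in HCF-2 WT. On day 2, 0 HOX genes rose and 1 fell, where 0.0264% and 0.275% of all genes did so. The 1 gene was HOXD13, a regulator of digit formation, at 55.5 and 53.2 CPM on day 1 and 38.5 and 37.8 on day 2 (log2 fold change -0.51, SE 0.09, adjusted p = 0.0329). Its call was lost when any of 6 libraries was left out, namely either library of day 1, 2 or 6, with adjusted p values of 0.0983 to 0.404. On day 4, 0 rose and 2 fell (5.13% and 1.87% of all genes), HOXD13 at 38.7 and 35.4 CPM (log2 fold change -0.55, adjusted p = 0.00268) and HOXA10 at 81.4 and 76.4 CPM (log2 fold change -0.55, adjusted p = 0.00261). Without HCF-2 WT day 4 replicate 2, the library with the most genes counted, HOXD13 was at -0.49 on day 4, short of the fold threshold. Without HCF-2 WT day 1 replicate 1, HOXA10 was at -0.47, also short of it. At 41.6 and 42.2 CPM on day 6, HOXD13 was not called (log2 fold change -0.40, adjusted p = 0.00363).

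Against day 2 in place of day 1, 13 HOX genes fell by day 6 in HCF-2 WT and 0 rose (7.65% and 13.1% of all genes). The median was -0.44 over the HOX genes and -0.01 over all genes. The contrast shares its day 6 libraries with the one above. The HOXC cluster had 3 falls in it, namely HOXC6 (log2 fold change -0.61, adjusted p = 0.00127), HOXC8 (-0.63, adjusted p = 0.0151) and HOXC9 (-0.73, adjusted p = 0.000384), which all act in the thoracic region of the axis. HOXC9 measured 27.6 and 26.4 CPM on day 1, 33.3 and 30.9 on day 2, 18.6 and 23.1 on day 4 and 19.97 and 19.4 on day 6, so that its highest libraries were those of day 2. Without HCF-2 WT day 2 replicate 1 or day 6 replicate 1, 8 falls were left. Among others, HOXA2, HOXA3, HOXA9, HOXB3, HOXC9 and HOXD9 kept their calls without any single library. HOXC6 was lost without day 2 replicate 1 (-0.49) and HOXC8 without that library (adjusted p = 0.152) or either library of day 6 (0.0641 and 0.0859).

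In HCF-2 Fn3nc*, 3 of the 35 HOX genes tested rose and 1 fell on day 6 against day 1. Over all genes 8.89% rose and 15.4% fell, so that the share of HOX genes that rose was near that of all genes. The median log2 fold change was 0.15 over the HOX genes and 0.00 over all genes. HOXB8 measured 1.73 and 1.57 CPM on day 1, 2.64 and 2.84 on day 2, 2.94 and 3.37 on day 4 and 3.88 and 4.01 on day 6 (log2 fold change by day 6 1.22, SE 0.19, adjusted p = 0.000432). HOXA13 measured 66.9 and 65.8 CPM on day 1, 106 and 95.2 on day 2, 104 and 111 on day 4 and 106 and 100.2 on day 6 (log2 fold change by day 6 0.60, SE 0.07, adjusted p = 6.71e-05). In both genes the day 1 libraries lay below all later ones. HOXA10 measured 84.6 and 84.8 CPM on day 1 and 121 and 130.5 on day 6 (log2 fold change 0.54, SE 0.06, adjusted p = 5.40e-05). HOXA7, a trunk patterning gene, measured 7.03 and 6.19 CPM and 3.38 and 4.83 (log2 fold change -0.73, SE 0.18, adjusted p = 0.00741). HOXA7 shares 1507 exon bases with the antisense gene HOXA-AS3. The calls of HOXA13 and HOXB8 on day 6 held without any single library. HOXA10 fell short of the fold threshold without HCF-2 Fn3nc* day 6 replicate 2 (0.49), and HOXA7 lost its call without day 1 replicate 1 (adjusted p = 0.0626) or day 6 replicate 1 (0.0794, with a log2 fold change of -0.46).

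On day 2 in HCF-2 Fn3nc*, HOXA13 (0.58) and HOXB8 (0.71) rose and 0 fell (4.18% and 10.7% of all genes). On day 4, 3 rose, HOXA13 (0.66), HOXB8 (0.90) and HOXD4 (0.73, adjusted p = 0.0495), and 0 fell (8.04% and 15.4% of all genes). HOXB8 lost its day 2 call without either day 1 library (adjusted p = 0.0626 and 0.117) or without day 2 replicate 2 (0.0581), and 5 genes rose on day 4 without day 4 replicate 2. HOXD4 lost its day 4 call without either library of day 1 or of day 4 (adjusted p = 0.108 to 0.199). On day 6 against day 2, 0 rose and 0 fell (0.645% and 2.22% of all genes), and DESeq2 called 0. An unadjusted p under 0.05 was reached by 7, for which the share of all genes is not given here. Without HCF-2 Fn3nc* day 6 replicate 2, 1 rose. All contrasts with day 1 share the day 1 libraries, which also held the highest sum of blood cell markers, 11.3 FPKM in each, against 3.37 to 5.69 FPKM on the later days. HEK-293 markers summed to 629.6 to 644 FPKM on day 1 and 492 to 541 FPKM later, and squamous markers to 9.45 to 9.49 and 5.28 to 8.33 FPKM. The part of these lists in the changes was not tested.

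**Figure D3:**
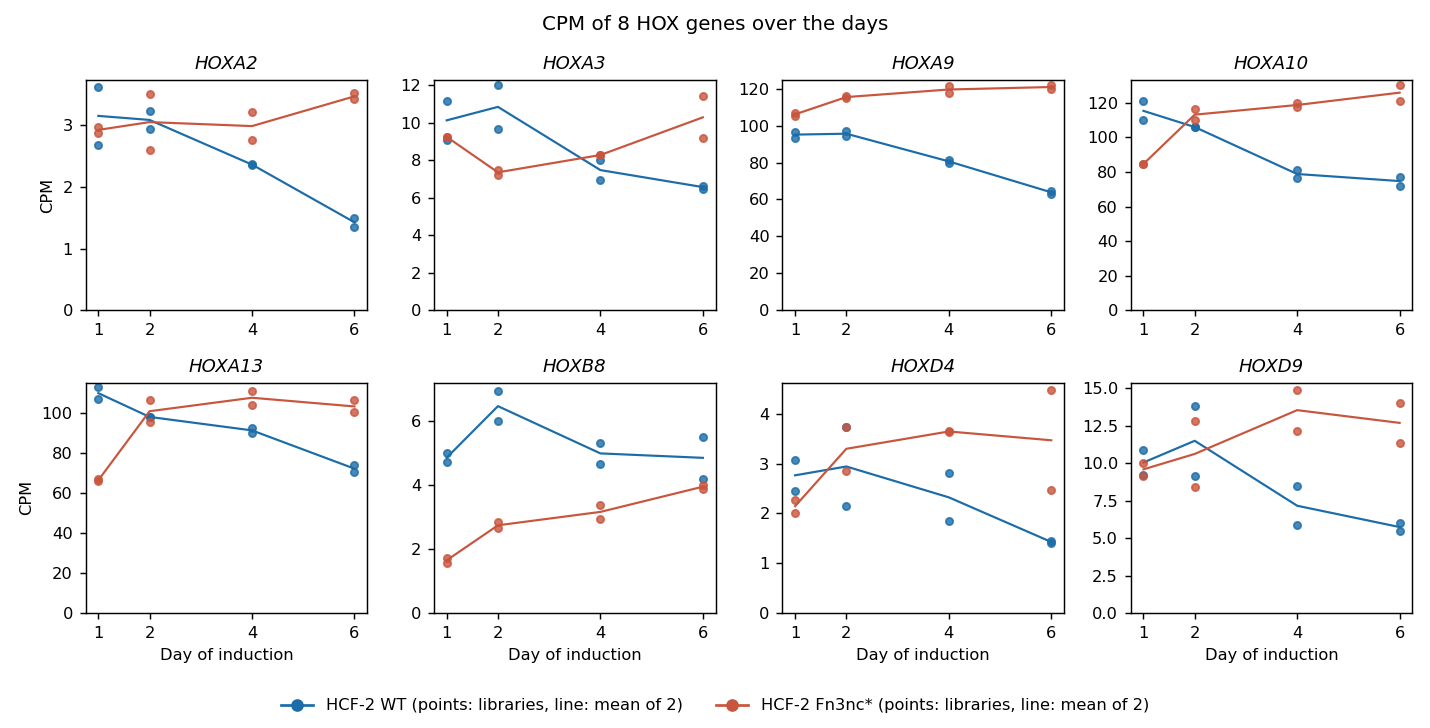
CPM of 8 HOX genes by day of induction in HCF-2 WT (blue) and HCF-2 Fn3nc* (red), with points for libraries and lines through the means of 2 libraries, each axis starting at 0. The lines of HOXA10 and HOXA13 cross between day 1 and day 2, HOXA9 is lower in HCF-2 WT on every day, and HOXB8 is higher there on every day.

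On day 1, 3 of 35 HOX genes were higher and 6 lower in HCF-2 Fn3nc* than in HCF-2 WT, where 18.7% and 15.5% of all genes were. HOX genes were thus called no more often than genes in general. The 3 higher genes are neighbours in the HOXA cluster. HOXA5 measured 43.9 and 39.96 CPM in HCF-2 WT and 65.8 and 59.5 in HCF-2 Fn3nc* (log2 difference 0.58, SE 0.08, adjusted p = 2.40e-05). HOXA6 measured 10.2 and 10.2 CPM and 18.6 and 18.6 (log2 difference 0.87, SE 0.16, adjusted p = 0.000278), and HOXA7 3.34 and 2.95 CPM and 7.03 and 6.19 (log2 difference 1.07, SE 0.19, adjusted p = 0.000211). The libraries of the lines did not overlap in any of these genes, which their calls make likely in advance. HOXA6 and HOXA7 share exon bases with antisense HOXA-AS3 (505 and 1507). HOXA6 also shares 57 with a same-strand gene, and HOXA5 shares none with any other gene.

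The 6 lower genes were all posterior or from the HOXB cluster. HOXB13, a gene of the prostate and hindgut, measured 10.6 and 11.6 CPM in HCF-2 WT and 4.31 and 4.199 in HCF-2 Fn3nc* (log2 difference -1.38, SE 0.13, adjusted p = 5.20e-07). HOXB8 measured 4.71 and 4.99 CPM and 1.73 and 1.57 (log2 difference -1.55, SE 0.18, adjusted p = 3.48e-06), and HOXB9 74.8 and 76.7 CPM and 47.7 and 44.2 (log2 difference -0.72, SE 0.07, adjusted p = 7.31e-07). In each of them the libraries of HCF-2 Fn3nc* were the lower ones. HOXC11, a gene of the hindlimb and kidney field, measured 17.8 and 18.5 CPM and 9.26 and 8.97 (log2 difference -0.99, SE 0.10, adjusted p = 8.32e-07). HOXA13 was lower by a log2 difference of -0.73 and HOXB6 of -0.53. Of the 9 calls, 8 held without any single library, and HOXA5 fell short of the fold threshold without HCF-2 WT day 1 replicate 2 (0.49). The HCF-2 Fn3nc* day 1 libraries had blood cell marker sums of 11.3 FPKM each, against 1.72 to 3.41 FPKM in HCF-2 WT, and squamous sums of 9.45 to 9.49 FPKM against 5.87 to 6.2 FPKM. Fibroblast sums were 4.66 to 5.2 FPKM against 2.32 to 2.42 FPKM, and HEK-293 marker sums 629.6 to 644 FPKM against 735 to 774 FPKM. Each of these sums follows the few genes named above. The part of the lists in the differences was not tested.

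By day 6, 13 HOX genes were higher and 5 lower in HCF-2 Fn3nc* (13.2% and 16.8% of all genes). The median difference was 0.26 over the HOX genes and 0.02 over all genes. By cluster, 7 of 11 HOXA and 4 of 7 HOXD genes were higher, against 1 of 9 HOXB and 1 of 8 HOXC genes. HOXA9 measured 64.7 and 63.1 CPM in HCF-2 WT and 119.9 and 122 in HCF-2 Fn3nc* (log2 difference 0.92, SE 0.06, adjusted p = 1.54e-08). HOXA2 measured 1.36 and 1.496 CPM and 3.42 and 3.52 (log2 difference 1.28, SE 0.22, adjusted p = 0.000175), and HOXA6 8.55 and 8.06 CPM and 23.3 and 16.7 (log2 difference 1.27, SE 0.16, adjusted p = 1.37e-05). The lines did not overlap in these genes, as is likely for called genes. HOXA5 (0.99), HOXA10 (0.75), HOXA3 (0.65) and HOXA13 (0.52) were the other higher HOXA genes. In the HOXD cluster HOXD9 measured 5.99 and 5.49 CPM and 14.01 and 11.3 (log2 difference 1.14, SE 0.23, adjusted p = 0.000806), and HOXD4 (1.28), HOXD3 (0.88) and HOXD10 (0.53) were also higher. HOXB4 (0.73) and HOXC9 (0.52) were the higher genes of the remaining clusters. The lower genes were HOXB13 (-1.20), HOXC11 (-0.94), HOXB7 (-0.65), HOXD8 (-0.64) and HOXB9 (-0.63).

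Marker lists also differed on day 6. HEK-293 markers summed to 744 to 792 FPKM in HCF-2 WT and 492 to 509.7 FPKM in HCF-2 Fn3nc*, fibroblast markers to 3.42 to 4.35 and 5.44 to 6.46 FPKM, blood cell markers to 3.38 to 3.68 and 4.09 to 4.5 FPKM, and squamous markers to 4.96 to 5.37 and 5.96 to 6.02 FPKM. Their part in the differences was not tested. Of these 18 calls, 12 held without any single library. HOXA13 and HOXC9 lie at the fold threshold, and their differences were 0.46 to 0.49 and 0.43 to 0.50 without any of 8 libraries each. HOXA3 (0.48), HOXD10 (0.47) and HOXD4 (0.79, adjusted p = 0.105) were lost without HCF-2 Fn3nc* day 6 replicate 1, and HOXB4 without any of the 4 day 6 libraries (0.0618 to 0.0992).

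**Figure D4:**
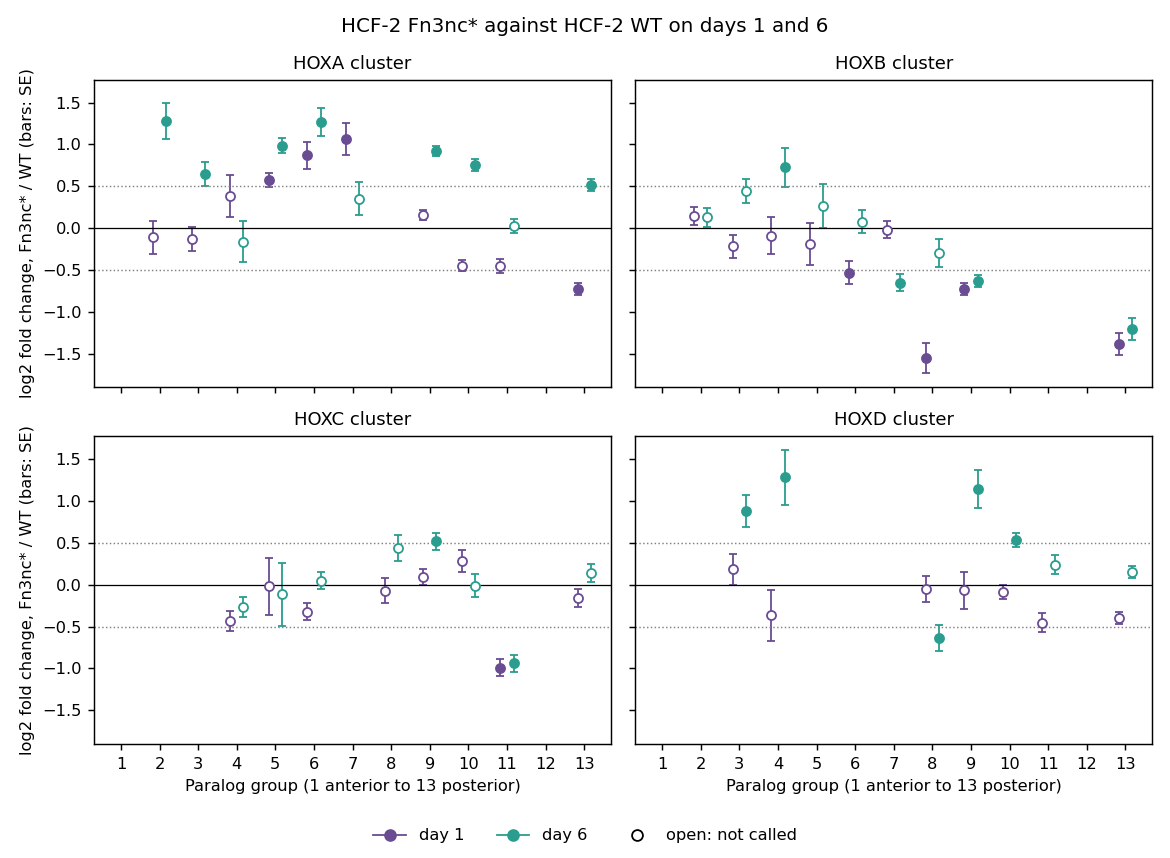
Log2 difference between HCF-2 Fn3nc* and HCF-2 WT on day 1 (purple) and day 6 (green) for 34 tested HOX genes, by cluster and paralog group. Bars are standard errors, filled points are called, open points are not, and dotted lines mark 0.5. On day 6 7 HOXA and 4 HOXD genes are filled above 0, while HOXB9, HOXB13 and HOXC11 are filled below 0 on both days.

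On day 2, 3 HOX genes were higher in HCF-2 Fn3nc* and 8 lower (9.08% and 7.57% of all genes), and on day 4, 9 were higher and 6 lower (10.1% and 12.1%). Of the 11 calls on day 2, 6 held without any single library, and of the 15 calls on day 4, 8 held. Lost on day 2 without some library were HOXA3, HOXA6, HOXA7, HOXB7 and HOXC6. On day 4 these were HOXB7, HOXB8, HOXC9, HOXD3, HOXD8, HOXD9 and HOXD10. HOXA5 and HOXA6 were higher on all 4 days, and HOXB9, HOXB13 and HOXC11 lower on all 4. The share of all genes called in the same direction on all 4 days is not given here, so these genes cannot be set against it. HOXA6 lost its day 2 call without replicate 2 of either line on that day (adjusted p = 0.09805 in HCF-2 WT and 0.112 in HCF-2 Fn3nc*). HOXC11 measured 17.8 to 23.3 CPM over the 8 HCF-2 WT libraries and 8.97 to 12.3 over the 8 HCF-2 Fn3nc* libraries, and HOXB13 10.6 to 13.5 and 4.199 to 5.93. Neither gene had any overlap between the lines, as is likely for genes called on all 4 days. HOXA13 was lower in HCF-2 Fn3nc* on day 1 (-0.73) and higher on day 6 (0.52), and HOXA3 was lower on day 2 (-0.56) and higher on day 6 (0.65). The day 2 value of HOXA3 was -0.40 (adjusted p = 0.104) without HCF-2 WT day 2 replicate 1. In all, 22 of 35 HOX genes (62.9%) differed between the lines on at least 1 day, where 53.3% of all genes did.

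The difference between the responses of the 2 lines was tested itself, as the change from day 1 in HCF-2 WT minus that in HCF-2 Fn3nc*, called at an adjusted p under 0.05 with no fold threshold. By day 6, 16 HOX genes had a lower and 2 a higher change in HCF-2 WT (16.1% and 20% of all genes). The median was -0.45 over the HOX genes and 0.00 over all genes. HOXA10 and HOXA13, the genes called in both lines by day 6, had differences of -1.20, SE 0.10, adjusted p = 3.67e-07 and -1.24, SE 0.10, adjusted p = 2.62e-07. HOXD4 (-1.65, adjusted p = 0.00916), HOXA2 (-1.39, adjusted p = 0.00173), HOXB8 (-1.26, adjusted p = 0.000993) and HOXD9 (-1.21, adjusted p = 0.00794) had the other differences beyond 1 on the log2 scale. For HOXB8 the values of the lines were -0.03 in HCF-2 WT, not called, and 1.22 in HCF-2 Fn3nc*. HOXB7 (0.64, adjusted p = 0.00244) and HOXD8 (0.59, adjusted p = 0.0444) had the higher changes in HCF-2 WT, though neither was called in HCF-2 WT alone (0.38 and 0.45) or in HCF-2 Fn3nc* alone (-0.28 and -0.15). Of the 18 calls, 12 held without any single library. HOXD4 was at -1.15 (adjusted p = 0.0678) without HCF-2 Fn3nc* day 6 replicate 1. HOXA5 lost its call (adjusted p = 0.0572 to 0.0759) without HCF-2 WT day 1 replicate 1, HCF-2 WT day 6 replicate 1 or HCF-2 Fn3nc* day 1 replicate 2. HOXB3 did so (0.0512 to 0.0926) without replicate 1 of day 6 of either line or HCF-2 Fn3nc* day 1 replicate 2. HOXB6 (0.0537 to 0.121) lost it without HCF-2 WT day 1 replicate 2, either HCF-2 Fn3nc* day 1 library or replicate 1 of day 6 of either line. HOXC9 (0.0521 to 0.101) lost it without HCF-2 WT day 1 replicate 1, either HCF-2 Fn3nc* day 1 library or replicate 2 of day 6 of either line. HOXD8 lost its call without any of 7 libraries (adjusted p = 0.0658 to 0.1895), namely HCF-2 WT day 1 replicate 2 (at 0.35), either HCF-2 WT day 6 library and the 4 HCF-2 Fn3nc* libraries of days 1 and 6.

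By cluster, the difference was called in 7 of 11 HOXA, 4 of 9 HOXB, 1 of 8 HOXC and 6 of 7 HOXD genes. By day 2, 3 genes were called (HOXA10, HOXA13 and HOXB7, against 16.2% of all genes), and by day 4, 14 (30.7%). The day 2 calls of HOXA10 and HOXA13 held without any single library, and that of HOXB7 did not. Of the 14 calls by day 4, 6 held without any single library. Those of HOXA6, HOXA11, HOXB7, HOXB8, HOXC9, HOXC13, HOXD9 and HOXD11 were lost without some library. Without HCF-2 Fn3nc* day 1 replicate 2, 9 were called by day 4. With day 2 in place of day 1 as the reference, a contrast added after the data had been seen, 16 HOX genes had a lower and 0 a higher change in HCF-2 WT from day 2 to day 6 (10.3% and 13.9% of all genes). This contrast does not compare with the day 1 libraries, although they are part of the fit and its estimate of the spread. The day 6 libraries are shared with the contrast above. HOXA2 (-1.30, adjusted p = 0.00516), HOXD9 (-1.27, adjusted p = 0.00972) and HOXA3 (-1.21, adjusted p = 0.000633) had the largest differences in it, HOXA10 was at -0.66, adjusted p = 0.000222 and HOXA13 at -0.48, adjusted p = 0.00249, and HOXB7 (0.12, adjusted p = 0.584) and HOXD8 (0.20, adjusted p = 0.558) were not called. Without HCF-2 WT day 2 replicate 1, 8 were left, HOXD9 at an adjusted p of 0.07004, and without HCF-2 WT day 6 replicate 1, 10.

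The 17 non-coding genes of the clusters (HOX antisense genes, HOTAIR, HOTAIRM1 and HOTTIP) that reached 1 FPKM in at least 1 library were listed beside the HOX genes. By day 6, 1 rose and 2 fell in HCF-2 WT (13.2% and 8.04% of all genes), and 4 rose and 1 fell in HCF-2 Fn3nc* (8.89% and 15.4% of all genes). HOXA-AS3, which runs antisense to HOXA3, HOXA4, HOXA6 and HOXA7, measured 27.04 and 26.9 CPM on day 1 and 9.37 and 9.14 on day 6 in HCF-2 WT (log2 fold change -1.57, SE 0.15, adjusted p = 2.64e-05). In HCF-2 Fn3nc* it measured 20.3 and 19.3 CPM and 26.1 and 18.5 (log2 fold change 0.14, adjusted p = 0.739). HOXA11-AS, antisense to HOXA11, measured 16.2 and 15.6 CPM on day 1 and 31.4 and 30.03 on day 6 in HCF-2 Fn3nc* (log2 fold change 0.92, SE 0.11, adjusted p = 8.27e-05), while HOXA11 had 27.8 and 27.7 CPM and 29.4 and 32.97 (log2 fold change 0.13, adjusted p = 0.1897). HOTAIR, a non-coding RNA of the HOXC cluster that has been tied to Polycomb recruitment, rose in HCF-2 Fn3nc* from 12.2 and 13.2 CPM to 21.4 and 21 (log2 fold change 0.70, SE 0.08, adjusted p = 7.98e-05) and was at 0.30, adjusted p = 0.0456 in HCF-2 WT. HOXD-AS1 rose in both lines (0.61 in HCF-2 WT and 0.80 in HCF-2 Fn3nc*), and HOXB-AS3 fell in both (-0.53 and -0.58). These values are from RNA counts in which sense and antisense reads cannot be told apart where exons overlap.

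By day 6 in HCF-2 WT, 1 of 12 tested genes that flank the clusters rose and 0 fell (13.2% and 8.04% of all genes), and in HCF-2 Fn3nc* 0 did either (8.89% and 15.4%). The gene that rose was SNX10 (log2 fold change 0.51, adjusted p = 0.00495), beyond the anterior end of HOXA. SKAP2, on the same side, was at 0.19, adjusted p = 0.0993, MTX2, beyond the anterior end of HOXD, at 0.05, adjusted p = 0.773, and SMUG1, beyond the anterior end of HOXC, at -0.45, adjusted p = 0.00604. The median over the flanking genes was 0.07 in HCF-2 WT, against -0.01 over all genes.

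Lists of HOX regulators and partners were described in the same fits, in which by day 6 13.2% of all genes rose and 8.04% fell in HCF-2 WT, and 8.89% rose and 15.4% fell in HCF-2 Fn3nc*. Of 11 TALE class cofactors, 2 rose and 1 fell by day 6 in HCF-2 WT and 0 did either in HCF-2 Fn3nc*. MEIS2 (-0.58, adjusted p = 0.000372), which encodes a MEIS cofactor, fell, while MEIS3 (1.36, adjusted p = 0.000188) and PKNOX2 (1.35, adjusted p = 9.02e-05) rose. Of 12 tested upstream regulators, which include genes of retinoic acid signalling, 5 rose and 0 fell in HCF-2 WT, and 5 rose and 2 fell in HCF-2 Fn3nc*. CRABP2, a retinoic acid binding protein, rose in HCF-2 WT (1.57, adjusted p = 8.20e-06) and fell in HCF-2 Fn3nc* (-1.09, adjusted p = 2.84e-06). RARA, a retinoic acid receptor, did likewise (0.52, adjusted p = 0.00924 and -1.40, adjusted p = 3.32e-06). GDF11, a signalling ligand, was among the 5 that rose in HCF-2 Fn3nc* (0.82, adjusted p = 3.42e-05), at 0.14, adjusted p = 0.305 in HCF-2 WT. RARG, another receptor, rose in HCF-2 WT (1.34, adjusted p = 9.44e-05).

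The shares over all genes by day 6, 13.2% that rose and 8.04% that fell in HCF-2 WT, and 8.89% and 15.4% in HCF-2 Fn3nc*, also stand beside the next counts. Of 30 Polycomb genes, 1 rose (PHF1, 0.52, adjusted p = 0.00353) and 1 fell (EED, -0.50, adjusted p = 0.00512) in HCF-2 WT, and 3 rose and 7 fell in HCF-2 Fn3nc*, among them EZH2, the H3K27 methyltransferase (-0.80, adjusted p = 2.84e-06), which fell. Of 17 rows of a list of MLL/COMPASS subunits, their partners, H3K27 demethylases and the H3K79 methyltransferase DOT1L, 2 rose and 0 fell in HCF-2 WT (DOT1L 0.57 and KDM6B 1.23), and 0 rose and 3 fell in HCF-2 Fn3nc*, namely KDM6A (-1.12, adjusted p = 3.61e-07), KMT2A (-0.96, adjusted p = 4.29e-06), which encodes MLL itself, and KDM6B (-1.80, adjusted p = 3.31e-05). Of 36 homeobox genes outside the clusters, 13 rose and 0 fell in HCF-2 WT, among them MNX1 (0.58), MSX1 (0.94) and POU3F2 (0.66). Their median was 0.32, against -0.31 over the HOX genes, and this difference between the lists was not tested. In HCF-2 Fn3nc* 2 rose and 7 fell.

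HOXB2, HOXC4, HOXC5 and HOXC10 were tested and called in none of the 16 comparisons, and 31 of 35 (88.6%) were called in at least 1, where 70.5% of all genes were. HOXC4 measured 19.96 to 25.6 CPM in HCF-2 WT and 14.5 to 21.4 in HCF-2 Fn3nc*, HOXB2 16.5 to 23.6 and 16.6 to 23.1, HOXC10 7.66 to 10.6 and 7.67 to 10.7, and HOXC5 0.728 to 2.15 and 1.01 to 2.08. A miss of the threshold does not show that these genes were at the same level. HOXC5 had 16.6 to 64.9 expected counts per library, so that only large differences were detectable at this depth.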

How the data were processed

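Poly(A) RNA-seq libraries (NEXTflex, single-end) were made in duplicate for 8 groups, and the authors used STAR for alignment to GRCh37, which the submitters' notes also call hg19. The deposited expected counts and FPKM per gene were estimated by the authors with RSEM 1.3.0. Strandedness and the use of molecular identifiers are not given in the sources used here. Every library's columns were matched by title.

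Levels are given in deposited FPKM. Expected counts were rounded and tested with edgeR 4.0.16 (quasi-likelihood, TMM, R 4.3.3) over the 18925 genes above 1 FPKM in at least 1 library, with Benjamini-Hochberg adjustment over all of them. Days were compared within a line (8 libraries), and lines and differences of change in 1 fit of 16 libraries. CPM use TMM over 16 libraries. Alternatives were DESeq2 1.42.0, RLE scaling, other filters, a replicate block, other sets of libraries and leaving out each library. The contrast from day 2 to day 6 between lines was added after seeing the data. Positions and shared exon bases come from GENCODE 44 lifted to GRCh37, for 39 of 40 HOX rows, by Ensembl identifier. The paper mapped reads with an earlier GENCODE annotation. The shared bases therefore need not be those of the gene models behind the counts. The HOX genes and the 12 gene lists were chosen with earlier results of these data known. All HOX genes may be named, with values per library for those above 1 FPKM in every library of a group that were called. From the other lists, at most the 3 called genes with the highest mean FPKM in a comparison are named, with the nearest flanking genes and the non-coding genes of the clusters. Genes that make up most of a marker sum, and low markers of the same lists, are named too. Values of 1 HOX gene are not reported here, and the figures leave it out, though counts over HOX genes include it. Scripts were tested on simulated data.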

Additional observations from a re-analysis of the deposited data

Results flagged for a closer look

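The change over the days differed between HCF-2 WT and HCF-2 Fn3nc*, by an edgeR interaction test with adjusted p under 0.05 over all genes, in the HOX genes that follow. Values are the log2 change in HCF-2 WT minus that in HCF-2 Fn3nc*, with 2 libraries per group. From day 1 to day 6 these were HOXA10 (-1.20), HOXA11 (-0.48), HOXA13 (-1.24), HOXA2 (-1.39), HOXA3 (-0.78), HOXA5 (-0.41), HOXA9 (-0.76), HOXB3 (-0.66), HOXB6 (-0.61), HOXB7 (0.64), HOXB8 (-1.26), HOXC9 (-0.43), HOXD10 (-0.61), HOXD11 (-0.69), HOXD13 (-0.55), HOXD4 (-1.65), HOXD8 (0.59) and HOXD9 (-1.21). From day 2 to day 6 they were HOXA10 (-0.66), HOXA11 (-0.38), HOXA13 (-0.48), HOXA2 (-1.30), HOXA3 (-1.21), HOXA6 (-0.67), HOXA9 (-0.65), HOXB3 (-0.88), HOXB6 (-0.73), HOXB8 (-0.94), HOXC6 (-0.60), HOXC8 (-0.68), HOXC9 (-0.72), HOXD10 (-0.52), HOXD11 (-0.54) and HOXD9 (-1.27). Both sets share the day 6 libraries. Of the 16 calls from day 2 to day 6, 8 held without any single library. Without HCF-2 WT day 2 replicate 1 the calls of HOXA6, HOXA11, HOXB6, HOXB8, HOXC6, HOXC8, HOXD9 and HOXD11 were lost, and without HCF-2 WT day 6 replicate 1 those of HOXA6, HOXA11, HOXB6, HOXB8, HOXC8 and HOXD11. Without HCF-2 Fn3nc* day 2 replicate 1, HOXA6, HOXA11, HOXB6, HOXC8 and HOXD11 were lost, and without HCF-2 Fn3nc* day 6 replicate 1, HOXA6, HOXB6, HOXC8 and HOXD11. HOXA6 was then at -0.40 (adjusted p = 0.2298), and it was also lost without any of the 4 day 1 libraries. HCF-2 WT day 6 replicate 2 decided HOXA6, HOXC8 and HOXD11, HCF-2 WT day 2 replicate 2 HOXA11, HCF-2 Fn3nc* day 2 replicate 2 HOXC8, and HCF-2 Fn3nc* day 6 replicate 2 HOXA11 and HOXC8. No explanation was tested.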

How the results depend on the processing

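Of 140 calls of HOX genes over the 16 comparisons, none changed direction under any alternative run. The calls had passed the test in the same counts that these runs reuse, so a change of direction was unlikely in advance. Calls lost were 0 with RLE scaling, 1 with the filter on every library of a group, 7 with DESeq2, 8 with no FPKM filter, 3 of 36 with all 16 libraries in 1 fit for the day comparisons, and 0 of 53 with only that day's libraries for the line comparisons. The 1 call of HCF-2 WT on day 2 became 0 with no FPKM filter and with the replicate block, the 2 calls on day 4 became 5 with no FPKM filter, and the 2 calls of HCF-2 Fn3nc* on day 2 became 1 with DESeq2. HOXA4 and HOXD4 in HCF-2 WT on day 6 were not called by DESeq2 (adjusted p = 0.0617 and 0.0631).

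No shared effect of the replicate number was seen, as the correlation of deviations between same-numbered libraries was -0.216 to 0.106. Whether same-numbered libraries were paired in culture or induction is not given. With the replicate block 12 of the 140 calls were lost, among them HOXA4 in HCF-2 WT on day 6 (adjusted p = 0.0572), and HOXA6 (0.0758) and HOXC8 (0.0527) in the difference from day 2 to day 6, and the numbers of calls stayed within 1.5 times except on day 2 in HCF-2 WT, as given above.

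Leaving out 1 library at a time, the number of HOX genes called in HCF-2 WT was 0 to 1 for day 2, 1 to 8 for day 4 and 6 to 11 for day 6, each against day 1, and 8 to 16 for day 6 against day 2. In HCF-2 Fn3nc* it was 1 to 3, 2 to 5, 3 to 5 and 0 to 1. Between the lines it was 9 to 11, 8 to 11, 10 to 16 and 14 to 18 on days 1, 2, 4 and 6. For the difference in change it was 2 to 4, 9 to 17 and 13 to 21 by days 2, 4 and 6, and 8 to 18 from day 2 to day 6. These numbers hold calls gained as well as calls lost, so a similar number need not mean the same genes. The share of all genes called in each of these runs is not given here. A larger number in a run therefore need not be particular to HOX genes. Detection stayed at 35 genes. A group left with 1 library was assumed to vary like the others. With 2 libraries per group, genes with few counts such as HOXC5 allow only large differences to be seen.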
